A study of Rattus norvegicus with 82 samples.

Results

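Microtubules are the tracks on which molecular motors move cargo, and the compounds studied here bind tubulin, their building block. Kinesins mostly walk towards the growing plus end, and cytoplasmic dynein walks towards the minus end with the help of the dynactin complex. Other proteins stabilise the lattice (structural microtubule-associated proteins, or MAPs), follow the growing tip (end-binding and CLIP proteins) or bind free tubulin and favour disassembly (stathmins). In heart muscle the network carries mitochondria, mRNA and membrane proteins and adds stiffness to the myocyte.

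The transcripts of these proteins were measured in hearts of male Wistar rats, strain Crl:Wi(Han), after a single intravenous injection. Members were the genes whose symbol on the array begins with Kif, Klc, Dync, Dynl, Dctn, Mapre, Stmn or Clip, with Map1a, Map1b, Map2, Map4 and Mapt, and without Kif11, Kif20a, Kif23 and Kif2c. This gave 67 of the 14217 genes with a probe set of their own. Vinblastine was given at 0.5 or 3 mg/kg, vincristine at 0.1 or 1 mg/kg and colchicine at 0.2 or 2 mg/kg, all in saline, and the controls received saline alone. Hearts were taken 6 or 24 h later. Each of the 14 groups held 6 animals and so 6 arrays, except that both vincristine 0.1 mg/kg groups held 5, which makes 82 arrays. The labels give no age, litter or batch. Vinblastine and vincristine are vinca alkaloids that differ by a methyl or a formyl group on the vindoline nitrogen, and colchicine is an unrelated alkaloid. Their doses differ, so the compounds are set side by side and not tested against each other.

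Values are the deposited intensities of Affymetrix probe sets, in arbitrary linear units. The probe set with the highest mean stood for its gene, so levels are compared between groups and never between genes. Tests covered genes brighter than the 40th percentile of an array on 5 or more arrays. Of the 67 members 53 passed, among 11319 genes in all, and 51 of the 53 also passed on the saline arrays alone. Dync2h1 and Dynlt2b did not, with 0 and 2 saline arrays above that percentile. The 14 members that were not tested were dim: Dync1i1, Dynlrb2, Dynlt5, Kif14, Kif15, Kif18a, Kif18b, Kif1b, Kif20b, Kif5c, Kif6, Kif7, Map2 and Stmn2. Among them are the motors Kif14, Kif15, Kif18a, Kif18b and Kif20b of cell division and the neuronal Kif5c, Map2 and Stmn2, and no change is given for any of the 14. Changes are log2 differences after 16 was added to each intensity, which understates the change of dim genes. Their errors are standard errors of a limma model fitted to all 82 arrays, and errors of intensities are standard deviations (SD). A gene is said to have risen or fallen where its limma p was under 0.05 after Benjamini-Hochberg adjustment across the 11319 genes.

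The median intensity of an array lay between 57.6 and 63.3. On 10 arrays the whole profile was closer to the median, gene by gene, of a group other than the labelled one, with a distance ratio above 1.3. The array itself was left out of the median of its own group. The higher doses held 4 of them, all named below where they matter: replicate 1 of vinblastine 3 mg/kg, replicate 3 of vincristine 1 mg/kg and replicate 4 of colchicine 2 mg/kg at 6 h, and replicate 1 of colchicine 2 mg/kg at 24 h. Vinblastine replicate 1 was nearest colchicine 2 mg/kg at 24 h (ratio 1.654), and vincristine replicate 3 nearest saline at 24 h (1.833). Colchicine replicate 4 was nearest vinblastine 0.5 mg/kg at 24 h (2.299), and colchicine replicate 1 nearest colchicine 0.2 mg/kg at 24 h (3.204). The lower doses held the other 6: vinblastine 0.5 mg/kg (replicate 6 at 6 h, replicate 5 at 24 h), colchicine 0.2 mg/kg (replicates 1 and 6 at 6 h, replicate 6 at 24 h) and vincristine 0.1 mg/kg (replicate 5 at 24 h). Of these, both vinblastine arrays were nearest colchicine 2 mg/kg at 6 h (1.894 and 1.899). Colchicine replicate 6 at 24 h was nearest vincristine 1 mg/kg at 6 h (1.907). The remaining ones were nearest saline at 24 h or another lower-dose group. Whether any label is wrong was not tested. Another 33 arrays were closer to a different group by a smaller ratio. All values below use the arrays as labelled, and the counts and the calls that change are also given without the 10 arrays. The 10 were picked by their values over all genes tested, members among them. Leaving them out tends to narrow the spread within groups, so values without them are not separate support for a change. None of the 10 was in a saline group, in vinblastine 3 mg/kg at 24 h or in vincristine 1 mg/kg at 24 h. When those treated groups are compared with saline, leaving out the 10 changes only the shared estimate of spread and the adjustment. The summed intensity of 8 cardiac myocyte markers was 121000 to 155000 on the saline arrays. The tissue is a mixture of cells, so fewer cells of a type and less RNA per cell cannot be told apart.

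At 24 h the MAP Map1b, the plus-end protein Clip1 and the dynein heavy chain Dync1h1 rose after both vincristine 1 mg/kg and colchicine 2 mg/kg. The dynactin subunit Dctn6, the dynein light chains Dynll2 and Dynlt3, the kinesin light chains Klc2 and Klc4, the stathmins Stmn1 and Stmn4, the kinesins Kif13a, Kif1c, Kif21a and Kifc3 and the kinesin-binding protein Kifbp fell after both. These 3 rises and 12 falls were shared by comparisons that use the same saline animals. Of all genes tested, 30.4% passed in that vincristine comparison and 44.6% in that colchicine comparison. The share of all genes that passed in both was not counted, so the overlap is not a result about the members. Members that passed in any of the 12 comparisons with saline numbered 23 of 53 (43.4%), beside 57.1% of all genes tested. Of the 23, 0 rose in one and fell in another, which 0.875% of all genes did, so neither count is a result about the members. The remaining 30 tested members passed in none of the 12.

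As a group the members did not move more often than other genes. After vincristine 1 mg/kg at 24 h, 3 of the 53 rose and 14 fell, which is 32.1% of them beside 30.4% of all genes tested. After colchicine 2 mg/kg at 24 h, 5 rose and 13 fell, 34% beside 44.6%, or 9 and 12 after quantile normalization. After vinblastine 3 mg/kg at 24 h, 1 rose and 3 fell, 7.55% beside 9.58% (5.29% of all genes up and 4.28% down). At 6 h, 4 rose and 4 fell after vinblastine 3 mg/kg, 15.1% beside 23.3% (15.7% up and 7.67% down), and with quantile normalization 3 rose and 7 fell. Both vincristine 1 mg/kg and colchicine 2 mg/kg gave 2 rises and 0 falls at 6 h, 3.77% beside 3.3% and 9.27% of all genes. Of all genes 2.05% rose and 1.25% fell for that vincristine comparison, and 4.89% rose and 4.37% fell for that colchicine comparison. The share of members is near or below the background in all 6 comparisons, so these counts are not a result about the members as a set. By direction, 18.4% of all genes fell and 12% rose after vincristine at 24 h, and 25.3% fell and 19.3% rose after colchicine. Without the 10 arrays the rises and falls at 24 h were 3 and 15 for vincristine, 34% of members beside 34.9% of all genes. They were 7 and 13 for colchicine, 37.7% beside 50.6%, and 2 and 7 for vinblastine, 17% beside 15.8%. At 6 h the vinblastine counts were 3 and 1, 7.55% beside 15.8%. Vincristine gave 4 and 1 at 6 h, 9.43% beside 12.3%, and colchicine 3 and 2, 9.43% beside 19.3%.

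**Figure D1:**
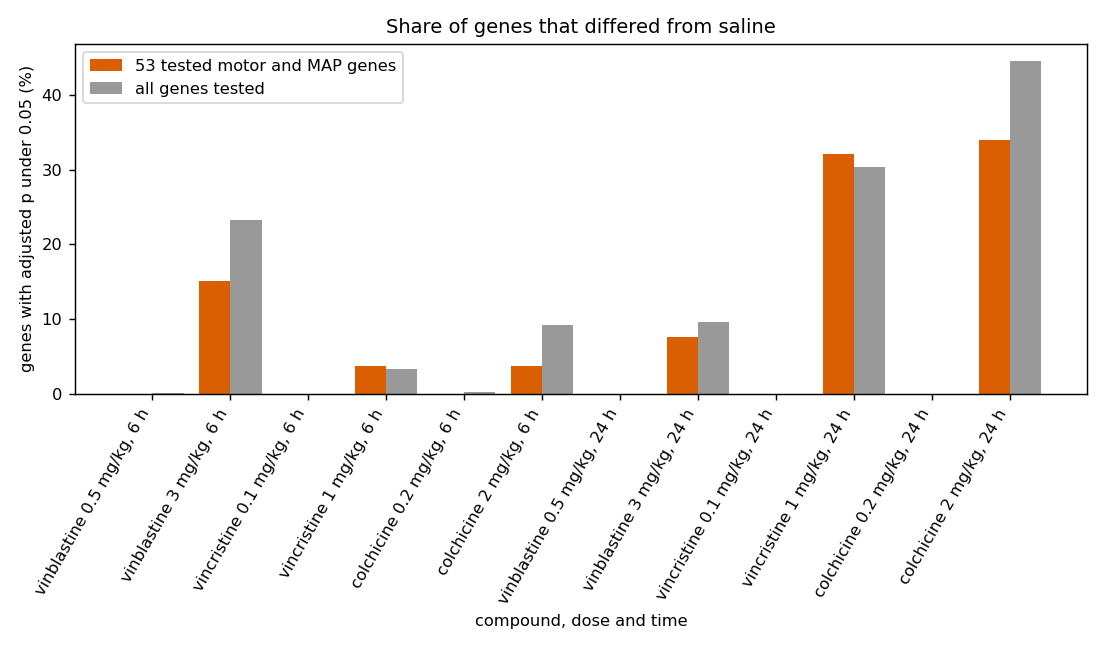
Share of genes with an adjusted p under 0.05 in each comparison with saline (vertical axis, percent), for the 53 tested members (orange) and all 11319 genes tested (grey). The orange bar is higher than the grey one only for vincristine 1 mg/kg, at 3.77% against 3.3% at 6 h and 32.1% against 30.4% at 24 h.

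The lower doses gave no call. For vinblastine 0.5 mg/kg, vincristine 0.1 mg/kg and colchicine 0.2 mg/kg at both times, 0 of 53 members passed in limma. Under an unadjusted p of 0.05 there were 2, 4 and 2 members at 6 h and 1 in each comparison at 24 h. Of all genes 0.0353% passed for vinblastine 0.5 mg/kg (0.00883% up, 0.0265% down) and 0.274% for colchicine 0.2 mg/kg at 6 h (0.247% up, 0.0265% down), and 0% in the other 4 comparisons. Between the saline groups of 24 and 6 h, 0 members passed beside 0.00883% of all genes, with 2 members under an unadjusted p of 0.05. Over all 12 comparisons only Map1b after colchicine at 24 h passed with an absolute log2 change of at least 1. The share of all genes that did so was not counted, so this is not a result about the members. The median absolute log2 change of the members was 0.13 after colchicine 2 mg/kg at 24 h, beside 0.17 over all genes, and 0.13 beside 0.14 after vincristine 1 mg/kg.

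**Figure D2:**
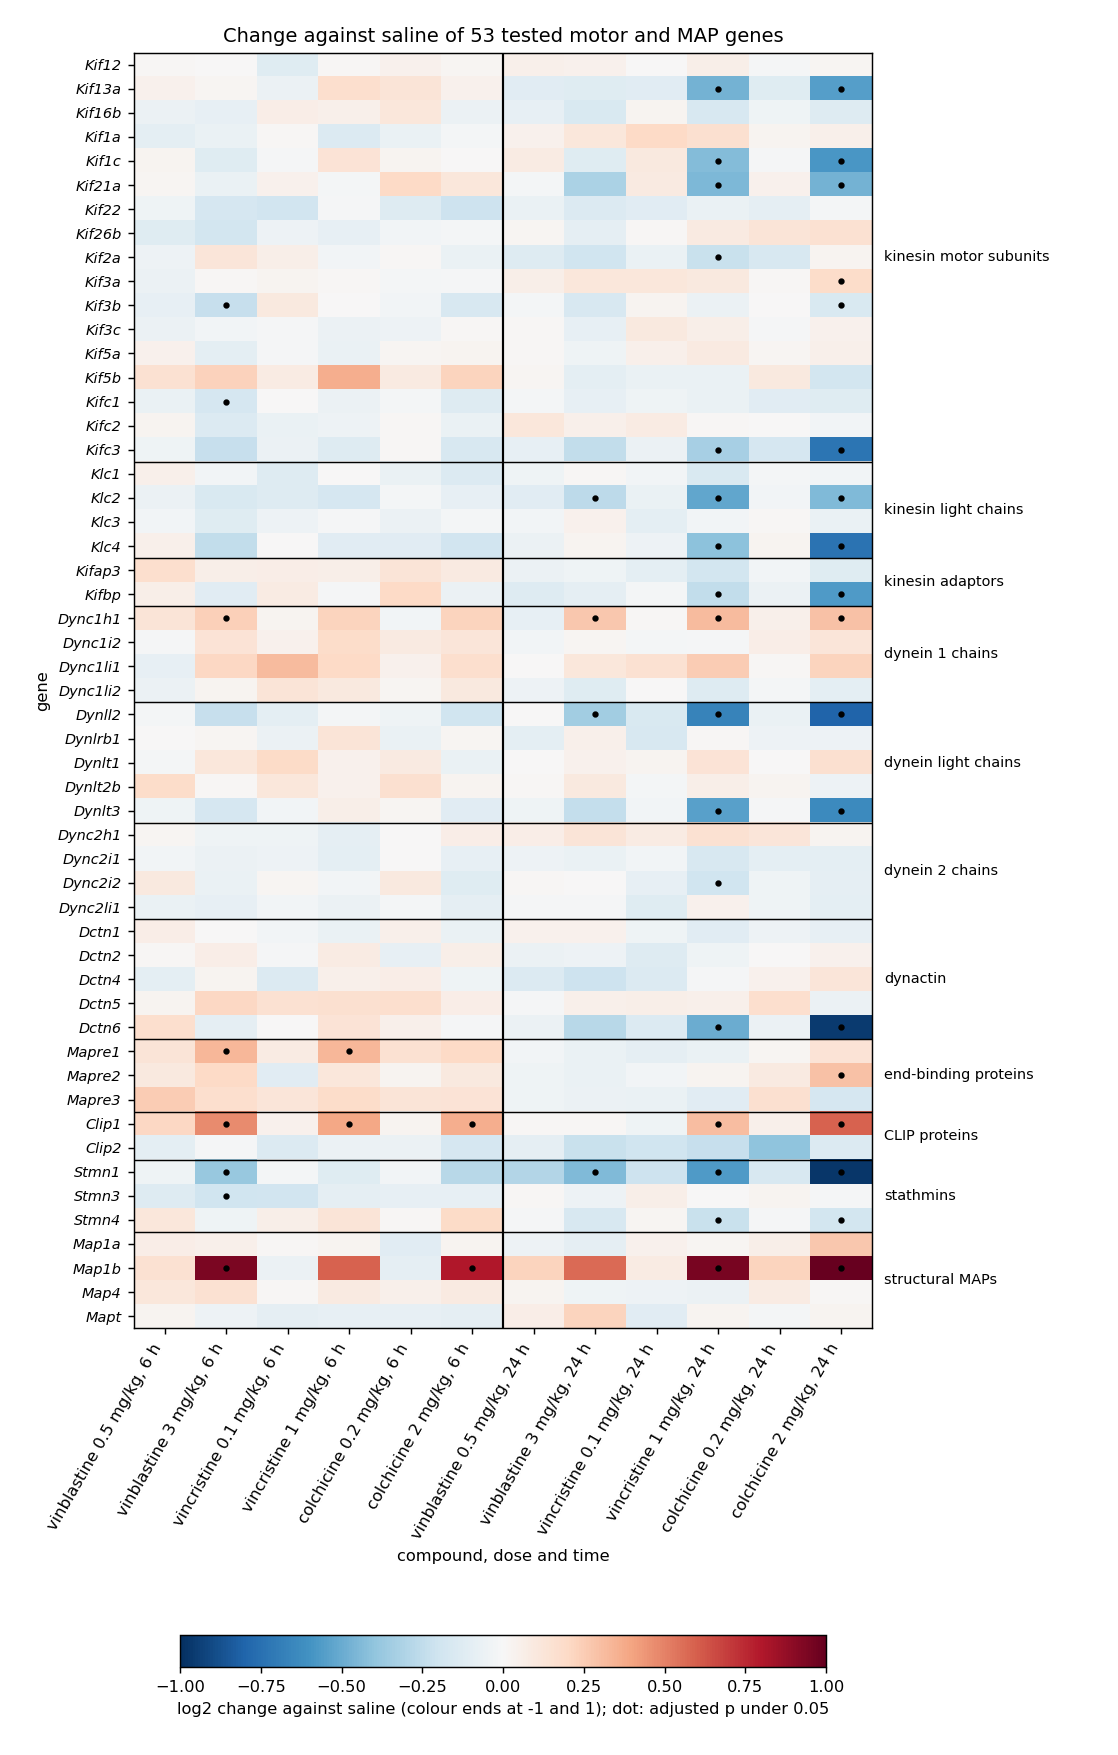
Log2 change against saline (colour, red higher and blue lower, ending at -1 and 1) of the 53 tested members, in rows by role, for the 12 comparisons in columns, 6 h left of the line and 24 h right of it. Dots mark an adjusted p under 0.05, and they are absent from all 6 columns of the lower doses.

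Map1b, a MAP that binds along the microtubule lattice and is best known from growing axons, rose most. Its intensity at 24 h was 518 to 629 on the saline arrays, with a median of 565. After colchicine 2 mg/kg it was 635 to 2060, with a median of 1880. The lowest colchicine value, 635, belonged to replicate 1, one of the 10 arrays, and lay just above the highest saline value of 629. In the group which that array was nearest, colchicine 0.2 mg/kg at 24 h, all arrays but replicate 6 read 573 to 636. The change after colchicine 2 mg/kg was log2 1.46 ± 0.2 (2.75-fold, limma adjusted p = 9.06e-09, n = 6 against 6), and 1.72 without the 10 arrays. After vincristine 1 mg/kg the arrays ran from 895 to 1290 with a median of 1170, above all of saline (log2 0.95 ± 0.2, adjusted p = 0.000141 in limma). Under vinblastine 3 mg/kg the range was 703 to 1040 with a median of 864, again above all of saline, but its change of log2 0.57 ± 0.2 did not pass (limma adjusted p = 0.0581). Without the 10 arrays the size was the same and the limma adjusted p was 9.66e-06. None of the 10 is in either group, so only the shared spread and the adjustment had changed.

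At 6 h Map1b was already higher. Saline arrays held 572 to 761 with a median of 639, and vinblastine 3 mg/kg arrays 984 to 1590 with a median of 1290, without overlap (log2 0.94 ± 0.2, limma adjusted p = 0.000358). Under colchicine 2 mg/kg the arrays held 493 to 1610 with a median of 1270 (0.8 ± 0.2, limma adjusted p = 0.00478), and its one array within the saline range was replicate 4, one of the 10. After vincristine 1 mg/kg the arrays ran from 594 to 1320 with a median of 1070 (0.59 ± 0.2, limma adjusted p = 0.0794). Without the 10 arrays the change was 0.73 with a limma adjusted p of 1.18e-07. Since the 10 were picked by these same data, that smaller p is not separate support. Under vincristine 0.1 mg/kg the 5 arrays at 24 h read 597, 648, 603, 591 and 582, all within or just above the saline range. The other tested probe sets of Map1b gave log2 1.46 and 0.42 after colchicine at 24 h, both past the threshold. Neither passed at 24 h for vincristine (0.62 and 0.17) or vinblastine (0.17 and 0.09). At 6 h neither passed for colchicine (0.74 and 0.21, limma adjusted p-values 0.0851 and 0.198). For vinblastine at 6 h the first passed and the second did not (0.9 and 0.19, limma adjusted p-values 0.0144 and 0.162). Map1a, the closest relative of Map1b, Map4, a MAP of many tissues including muscle, and Mapt, which encodes tau, passed in none of the 12 comparisons.

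**Figure D3:**
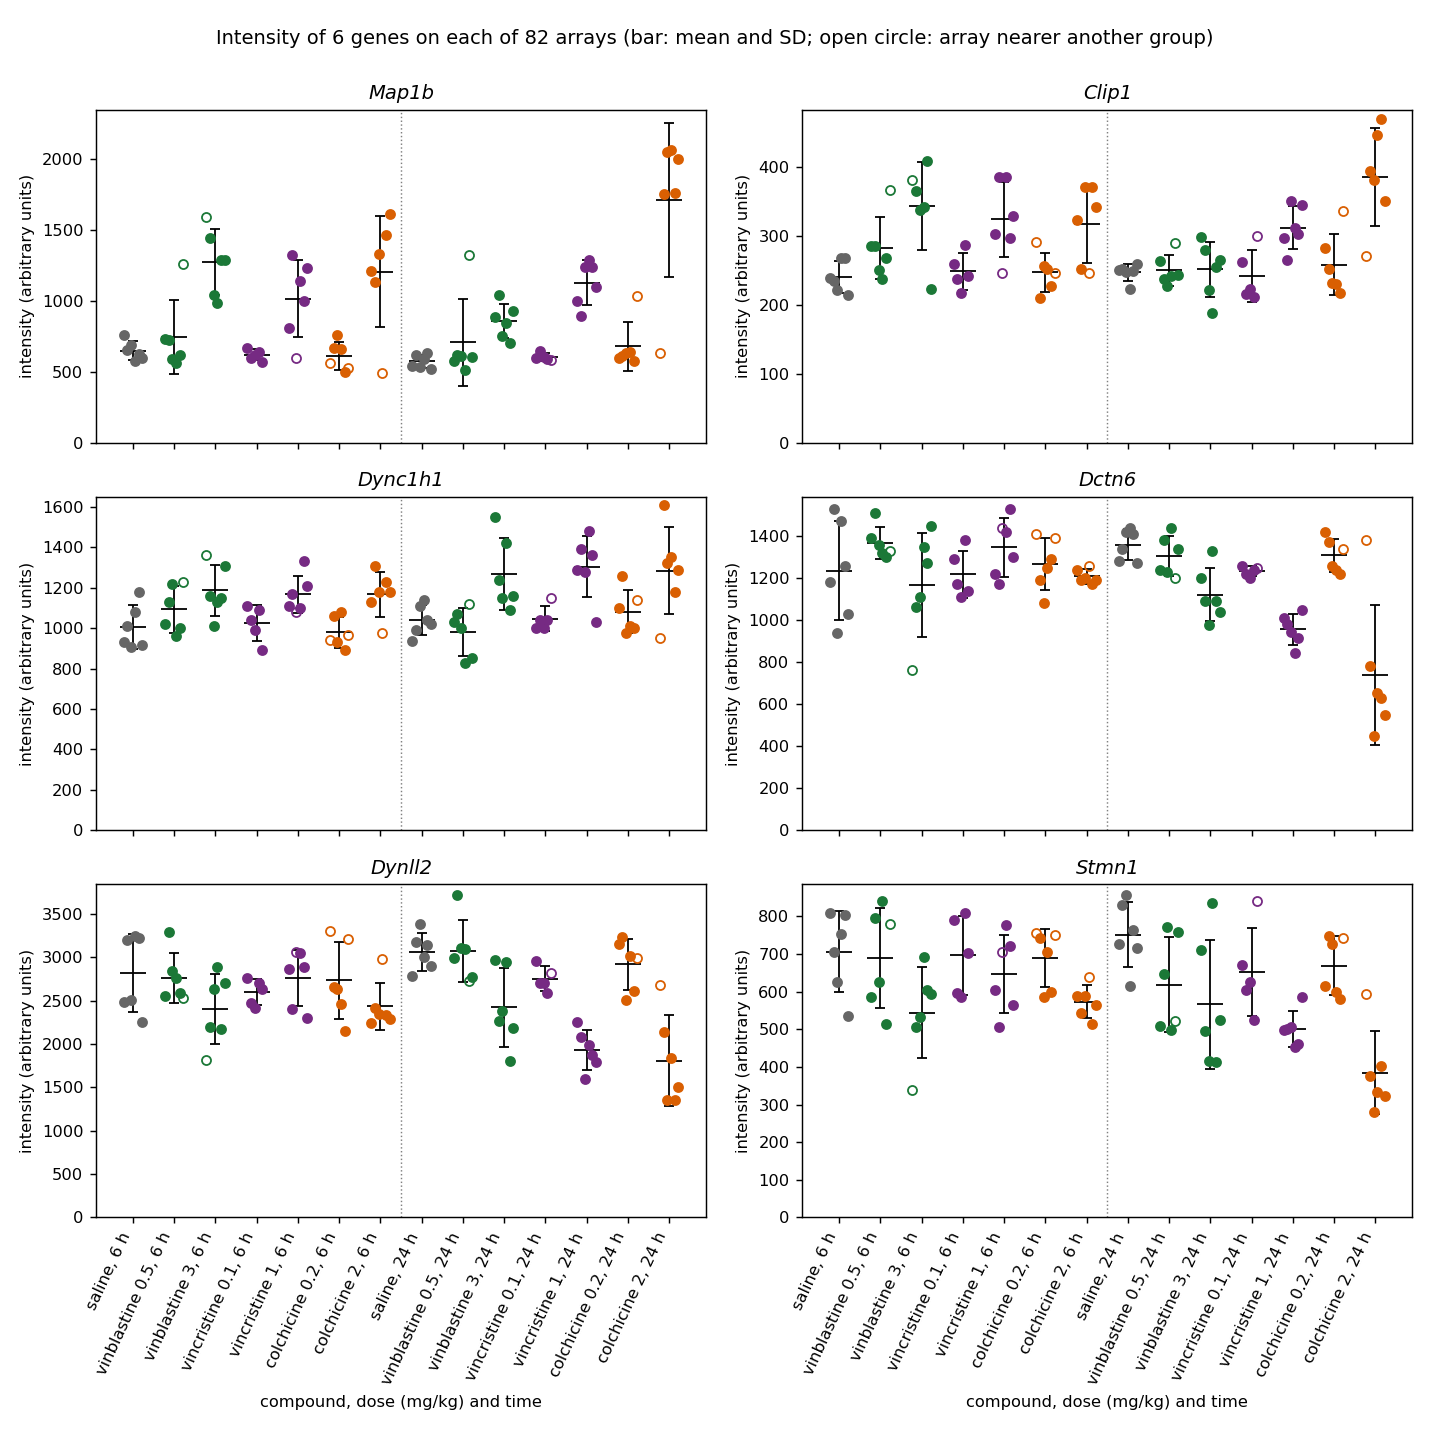
Intensity (arbitrary linear units, axes from 0) of Map1b, Clip1, Dync1h1, Dctn6, Dynll2 and Stmn1 on each of the 82 arrays, by group, with 6 h left of the dotted line and 24 h right of it. Points are animals, bars are the mean and SD, and open circles are the 10 arrays nearer another group, such as the colchicine 2 mg/kg array at 24 h with 635 for Map1b and 1380 for Dctn6.

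Clip1 encodes CLIP-170, which rides on growing plus ends and recruits dynactin. At 24 h saline arrays read 224 to 260 with a median of 250, and colchicine 2 mg/kg arrays 271 to 470 with a median of 389. The groups did not overlap (log2 0.59 ± 0.11, limma adjusted p = 1.56e-05). Vincristine 1 mg/kg arrays read 266 to 351 with a median of 308, also above all of saline (0.31 ± 0.11, adjusted p = 0.0294 in limma). That call was lost without saline replicate 4 (adjusted p = 0.0653) and without vincristine replicates 3 (0.0708) or 6 (0.0661). For vinblastine 3 mg/kg at 24 h the change was 0.01 ± 0.11 (adjusted p = 0.981 in limma).

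At 6 h Clip1 passed for all 3 higher doses, and the doses differ between compounds. It was 214 to 269 (median 237) under saline, 224 to 409 (median 354) under vinblastine, 246 to 386 (median 316) under vincristine and 246 to 371 (median 333) under colchicine. Each treated group overlapped saline by at least 1 array. The changes were log2 0.47 ± 0.11, 0.39 ± 0.11 and 0.36 ± 0.11, with limma adjusted p-values of 0.00177, 0.0363 and 0.0301. The vincristine call was lost without saline replicates 1 (adjusted p = 0.0648), 2 (0.0544), 3 (0.0857) or 6 (0.0915) and without vincristine replicates 2 (0.0892), 4 (0.163), 5 (0.0635) or 6 (0.0757). The colchicine call was lost without saline replicates 2 (0.0514), 3 (0.0681) or 6 (0.0715) and without colchicine replicates 1 (0.0607), 3 (0.101), 5 (0.0964) or 6 (0.077). Without the 10 arrays the changes were 0.43, 0.47 and 0.43, all past the threshold. With the mean of probe sets in place of the brightest, the vincristine and colchicine changes were 0.21 (adjusted p = 0.0975) and 0.19 (0.087). Clip2, the other CLIP protein, passed in none of the 12.

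Mapre1 encodes EB1, the end-binding protein that recruits most other tip proteins, CLIP-170 among them. It rose at 6 h: saline arrays read 492 to 681 (median 619), vincristine 1 mg/kg arrays 686 to 946 (median 734), and vinblastine 3 mg/kg arrays had a median of 780, a highest value of 1080 and a mean of 781 ± 164. Both changes were log2 0.33 ± 0.09, with limma adjusted p-values of 0.00334 and 0.0193, and the vincristine arrays lay above all of saline. Without vinblastine replicate 1, one of the 10 arrays, the vinblastine change was 0.23 (adjusted p = 0.0512). Without the 6 arrays whose label ends in _2 it was 0.24 (limma adjusted p = 0.0658). The other tested probe sets of Mapre1 gave 0.25 and 0.25 for vinblastine (limma adjusted p-values 0.00949 and 0.346). For vincristine they gave 0.23 and 0.28 (0.0655 and 0.429). The vincristine call was lost without saline replicate 6 (0.0854) or vincristine replicates 4 (0.126) or 5 (0.0669) and with the mean of probe sets (0.087). At 24 h the changes were -0.07 for both compounds. The difference between the times was log2 -0.4 ± 0.12 for both and passed for both (limma adjusted p-values 0.0442 for vinblastine and 0.0205 for vincristine). The vinblastine call was lost in 17 of 24 omissions of a single array, with adjusted p-values of 0.0179 to 0.125 over the 24, and without the 10 arrays (log2 -0.3, adjusted p = 0.0946 in limma). The vincristine call was lost without saline replicate 6 at 6 h (0.0615), saline replicate 3 at 24 h (0.0506) or vincristine replicate 4 at 6 h (0.0591), and held without the 10 arrays (0.00729). Mapre2, which encodes EB2, rose after colchicine at 24 h from 654 ± 63.8 to 810 ± 153 (0.29 ± 0.1, adjusted p = 0.0167 in limma), and Mapre3 passed in none of the 12.

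Stmn1 encodes the stathmin that holds tubulin dimers away from the polymer, and it fell at 24 h after the higher dose of all 3 compounds. At 24 h saline arrays read 616 to 856 with a median of 746. Colchicine 2 mg/kg arrays read 281 to 594 with a median of 354, below all of saline (log2 -0.97 ± 0.14, 1.96-fold lower, limma adjusted p = 5.44e-08). Vincristine 1 mg/kg arrays, at 454 to 585 with a median of 499, were also below all of saline (-0.57 ± 0.14, adjusted p = 0.00133 in limma). After vinblastine 3 mg/kg the arrays spread from 413 to 836 with a median of 510 and overlapped saline (-0.44 ± 0.14, adjusted p = 0.0352 in limma). The vinblastine call was lost without saline replicates 2 (0.0793), 3 (0.0866) or 5 (0.0612) and without vinblastine replicates 2 (0.0766), 3 (0.116), 5 (0.117) or 6 (0.0639). Without the 10 arrays the limma adjusted p was 0.00932, but none of the 10 is in the groups compared, so only the shared spread and the adjustment had changed.

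Stmn1 passed narrowly at 6 h after vinblastine 3 mg/kg (log2 -0.38 ± 0.14, limma adjusted p = 0.0421), from 535 to 808 (median 729) to 338 to 691 (median 563). The lowest array, 338, was replicate 1, one of the 10, and without the 10 arrays the change was -0.26 (adjusted p = 0.207). The call was also lost without vinblastine replicates 1 (0.263), 2 (0.0598) or 3 (0.0546) or saline replicates 1 (0.0964), 2 (0.0579), 4 (0.0701) or 5 (0.0895). Stmn4, another stathmin, fell at 24 h from 70 ± 10.4 to 57.2 ± 4.27 after vincristine and 60.2 ± 11.3 after colchicine (log2 -0.22 and -0.18, limma adjusted p-values 0.0159 and 0.0458). Stmn3 fell at 6 h after vinblastine 3 mg/kg from 79.4 ± 13 to 66.9 ± 6.84 (-0.2 ± 0.07, adjusted p = 0.0392 in limma), which was lost without the 10 arrays (0.149).

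Klc2 and Klc4 are light chains of kinesin-1, the parts that hold cargo. Klc2 read 945 to 1110 (median 1060) on saline arrays at 24 h and 667 to 819 (median 699) after vincristine 1 mg/kg, without overlap (log2 -0.52 ± 0.08, 1.44-fold lower, limma adjusted p = 2.52e-07). The vinblastine 3 mg/kg arrays, at 820 to 923 (median 859), were also below all of saline (-0.26 ± 0.08, adjusted p = 0.0197 in limma), a call lost without saline replicate 5 (0.0508). After colchicine 2 mg/kg the arrays ran from 607 to 1060 with a median of 751 (-0.44 ± 0.08, adjusted p = 2.95e-06 in limma). Klc2 was, with Dynll2 and Stmn1, one of 3 members that fell after all 3 compounds at 24 h. The share of all genes that did so was not counted, so this is not a result about the members.

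Klc4 read 447 to 575 (median 511) under saline at 24 h and 351 to 430 (median 370) under vincristine, below all of saline (log2 -0.41 ± 0.13, limma adjusted p = 0.0117). Under colchicine 5 arrays lay at 228 to 314 and replicate 1 at 531 (-0.74 ± 0.13, adjusted p = 2.39e-06 in limma, and -0.9 without the 10 arrays). After vinblastine its change was 0.03 ± 0.13 (adjusted p = 0.938 in limma). Klc1, the light chain of many tissues, and Klc3 passed in none of the 12. Kif5b, the kinesin-1 motor of most tissues that these chains attach to, passed in none either. Set against the change of Kif5b, the mean log2 change of Klc2 and Klc4 at 24 h was -0.39 after vincristine, -0.41 after colchicine and -0.02 after vinblastine, with an SD between animals of 0.18 under saline and 0.22 to 0.27 under treatment. This difference was chosen after the values were seen and is given without a test.

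Promoters of 52 of the 67 members were matched by gene ID to RefSeq sequence on GRCr8, covering 250 bases before and 50 after the annotated start. Shown are Map1b, a member that rose, and Stmn1 and Klc2, members that fell, each with calls for all 3 compounds, as the regulatory sequence next to genes that the results turn on. Dync1h1, which rose and also has an entry, is not shown. Each is written 5′ to 3′ on the strand of its gene in lower case, and capitals mark a match on either strand to one of 6 motifs: the GC box GGGCGG, the CCAAT box, the cAMP response element TGACGTCA, the E-box CACGTG, the nuclear receptor site AAGGTCA and the CArG box. The Map1b promoter lies at chr2:32644422-32644721 on the minus strand, that of Stmn1 at chr5:151964929-151965228 on the plus strand and that of Klc2 at chr1:211854111-211854410 on the minus strand.
Map1b: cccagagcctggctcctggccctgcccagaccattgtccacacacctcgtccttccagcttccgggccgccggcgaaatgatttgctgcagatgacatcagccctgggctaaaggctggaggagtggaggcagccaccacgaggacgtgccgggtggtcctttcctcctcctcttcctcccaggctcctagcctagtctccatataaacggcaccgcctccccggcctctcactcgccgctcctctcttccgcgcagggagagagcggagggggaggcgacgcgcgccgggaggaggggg
Stmn1: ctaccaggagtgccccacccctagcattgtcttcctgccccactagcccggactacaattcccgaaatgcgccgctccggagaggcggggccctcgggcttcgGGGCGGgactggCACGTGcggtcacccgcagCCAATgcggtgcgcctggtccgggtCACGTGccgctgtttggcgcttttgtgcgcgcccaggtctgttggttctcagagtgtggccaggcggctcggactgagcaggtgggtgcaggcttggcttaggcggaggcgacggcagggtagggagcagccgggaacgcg
Klc2: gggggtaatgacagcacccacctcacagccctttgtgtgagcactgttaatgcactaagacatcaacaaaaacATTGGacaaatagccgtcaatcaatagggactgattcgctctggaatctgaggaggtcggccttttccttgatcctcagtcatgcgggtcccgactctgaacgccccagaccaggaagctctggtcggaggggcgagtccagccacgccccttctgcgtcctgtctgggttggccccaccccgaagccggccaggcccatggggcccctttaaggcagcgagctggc
The Map1b window held 0 matches, the Stmn1 window 1 GGGCGG, 1 CCAAT and 2 CACGTG, and the Klc2 window 1 CCAAT on the opposite strand. No match overlapped another in these windows. Over the matched members, GGGCGG was in 34 of 52 promoters (65.4%), beside 34.9% of all 27457 promoters in the table. The CCAAT box was in 42.3% beside 37.7%, the E-box in 9.62% beside 6.65%, the cAMP response element in 7.69% beside 1.91%, the CArG box in 3.85% beside 1.64% and the nuclear receptor site in 0% beside 4.37%. Of the 12 members that fell after both vincristine and colchicine at 24 h, 7 had a promoter in the table, and CCAAT was in 3 of them, GGGCGG in 5 and CACGTG in 1. These are letter matches and not binding sites.

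Among the 17 kinesin motor subunits tested, 5 fell and 0 rose after vincristine at 24 h, and 5 fell and 1 rose after colchicine. All genes tested passed at 30.4% and 44.6% in these comparisons, so the counts of kinesins were near or below the background and are not a result about them as a group. Kifc3, a minus-end-directed kinesin of the kinesin-14 family, read 233 to 256 (median 246) under saline and 99.7 to 251 (median 132) under colchicine 2 mg/kg. The 251 was again replicate 1, and the other 5 arrays were at or below 151, under all of saline (log2 -0.73 ± 0.1, 1.66-fold lower, limma adjusted p = 8.98e-09, and -0.89 without the 10 arrays). Vincristine 1 mg/kg arrays at 170 to 215 (median 192) did not overlap saline (-0.33 ± 0.1, adjusted p = 0.00798 in limma). The vinblastine 3 mg/kg change did not pass (-0.25 ± 0.1, adjusted p = 0.113 in limma) but did without the 10 arrays (0.00594). None of the 10 is in the groups compared, so only the shared spread and the adjustment had changed.

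Kif1c and Kif13a are plus-end-directed motors of the kinesin-3 family that carry vesicles. Kif1c read 1930 to 2170 (median 2040) under saline at 24 h, 1280 to 1730 (median 1510) under vincristine and 1060 to 1960 (median 1280) under colchicine. The vincristine arrays were below all of saline, and 1 colchicine array was within its range (log2 -0.43 ± 0.11 and -0.58 ± 0.11, limma adjusted p-values 0.00168 and 1.34e-05). Kif13a read 748 to 1010 (median 879) under saline, 546 to 693 (median 656) under vincristine and 443 to 863 (median 547) under colchicine (-0.47 ± 0.12 and -0.55 ± 0.12, limma adjusted p-values 0.002 and 0.000113). For both genes the colchicine array inside the saline range was replicate 1. A second Kif13a probe set gave -0.41 and -0.45, both past the threshold.

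Kif21a, a kinesin-4 motor known to restrain microtubule growth, read 128 to 208 (median 146) under saline at 24 h. It read 97.6 to 118 (median 106) under vincristine, below all of saline, and 57.3 to 175 (median 105) under colchicine (log2 -0.45 ± 0.11 and -0.47 ± 0.11, limma adjusted p-values 0.00139 and 0.000373). Vinblastine arrays at 97.1 to 154 (median 115) gave -0.32 ± 0.11 (adjusted p = 0.0631 in limma). Kif2a, a kinesin-13 that takes microtubules apart, fell after vincristine from 212 ± 23.2 to 179 ± 17.9 (-0.22 ± 0.08, adjusted p = 0.0372 in limma).

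The subunits of kinesin-2, which works in cilia and on vesicles, moved little and not together. Kif3b fell after vinblastine at 6 h, from 186 to 222 (median 199) to 148 to 185 (median 174), without overlap (log2 -0.23 ± 0.06, limma adjusted p = 0.00269). At 24 h it fell after colchicine by 0.15 ± 0.06 (adjusted p = 0.0314 in limma). The 24 h call was lost without the 10 arrays (adjusted p = 0.105), after quantile normalization (0.139), with the mean of probe sets (0.359), without saline replicates 1 (0.0963) or 4 (0.0808) and without colchicine replicates 1 (0.0914), 2 (0.0858) or 4 (0.0568). The second Kif3b probe set gave 0.04 for colchicine at 24 h and -0.04 for vinblastine at 6 h, neither past the threshold (limma adjusted p-values 0.639 and 0.732). Kif3a rose after colchicine at 24 h from 65.4 ± 2.56 to 76.5 ± 9.78 (0.18 ± 0.07, adjusted p = 0.0348 in limma), while Kif3c and Kifap3, the adaptor of the complex, passed in none of the 12. Kifc1, a kinesin-14 of the mitotic spindle, fell after vinblastine at 6 h from 53.7 ± 8.73 to 45.6 ± 3.74 (-0.17 ± 0.06, adjusted p = 0.0446 in limma), and this was lost without the 10 arrays (0.141).

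Kifbp, which binds kinesin motor domains and keeps them off the track, read 787 to 992 (median 838) under saline at 24 h. Colchicine 2 mg/kg arrays read 439 to 847 with a median of 534, and replicate 1 alone lay in the saline range (log2 -0.57 ± 0.08, 1.49-fold lower, limma adjusted p = 2.81e-08). Vincristine 1 mg/kg arrays at 601 to 834 (median 734) overlapped saline (-0.25 ± 0.08, adjusted p = 0.0147 in limma). The vincristine call was lost without saline replicate 2 (0.0598) and without vincristine replicates 2 (0.0658) or 4 (0.0528). The other kinesin motor subunits tested, Kif12, Kif16b, Kif1a, Kif22, Kif26b, Kif5a and Kifc2, passed in none of the 12 comparisons.

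Of the dynein 1 chains the heavy chain Dync1h1 rose, and of the 5 light chains tested Dynll2 and Dynlt3 fell at 24 h. Dync1h1, the motor heavy chain of cytoplasmic dynein 1, read 935 to 1140 (median 1030) under saline at 24 h. It read 1030 to 1480 (median 1320) under vincristine 1 mg/kg, 952 to 1610 (median 1300) under colchicine 2 mg/kg and 1090 to 1550 (median 1200) under vinblastine 3 mg/kg. All 3 treated groups overlapped saline (log2 0.32 ± 0.09, 0.29 ± 0.09 and 0.27 ± 0.09, limma adjusted p-values 0.00406, 0.00564 and 0.0368). The vinblastine call was lost without saline replicates 1 (0.0965), 2 (0.0742), 5 (0.0575) or 6 (0.0571) and without vinblastine replicates 1 (0.138), 2 (0.0521) or 4 (0.097). At 6 h vinblastine gave 1010 to 1360 (median 1150) against 904 to 1180 (median 968), log2 0.24 ± 0.09 (adjusted p = 0.0432 in limma). This was lost without the 10 arrays (0.115), after quantile normalization (0.13, adjusted p = 0.214), without saline replicates 1 (0.0902), 2 (0.0544), 3 (0.107) or 6 (0.1) and without vinblastine replicates 1 (0.165) or 6 (0.0946). The intermediate chain Dync1i2 and the light intermediate chains Dync1li1 and Dync1li2 passed in none of the 12.

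Dynll2 encodes an LC8 light chain, which binds dynein and many other partners. It read 2780 to 3380 (median 3070) under saline at 24 h, 1600 to 2250 (median 1930) under vincristine 1 mg/kg and 1350 to 2680 (median 1670) under colchicine 2 mg/kg. Both treated groups were below all of saline (log2 -0.67 ± 0.12 and -0.8 ± 0.12, limma adjusted p-values 6.84e-06 and 4.59e-08). Vinblastine 3 mg/kg arrays at 1800 to 2970 (median 2330) overlapped saline (-0.35 ± 0.12, adjusted p = 0.041 in limma). That call was lost without saline replicates 2 (0.0755), 3 (0.095), 4 (0.0574) or 5 (0.0723), without vinblastine replicates 2 (0.0781), 3 (0.0602), 5 (0.154) or 6 (0.0921) and with the mean of probe sets (0.0526). A second Dynll2 probe set fell by 0.24 after vincristine and by 0.39 after colchicine, both past the threshold. The change of Dynll2 minus that of Dync1h1 was -0.98 after vincristine, -1.08 after colchicine and -0.62 after vinblastine, a difference chosen after the values were seen and given without a test.

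Dynlt3, a light chain of the Tctex family that binds cargo, read 745 to 862 (median 797) under saline at 24 h. It read 499 to 605 (median 543) under vincristine, below all of saline, and under colchicine 388 to 552 in 5 arrays and 844 in replicate 1. The changes were log2 -0.54 ± 0.09 and -0.64 ± 0.09 (limma adjusted p-values 6.05e-06 and 4.94e-08), and -0.79 for colchicine without the 10 arrays. Dynlrb1, Dynlt1 and Dynlt2b, the other dynein light chains tested, passed in none of the 12. Of dynein 2, the motor of cilia, the intermediate chain Dync2i2 fell after vincristine at 24 h from 144 ± 7.12 to 124 ± 15.8 (-0.2 ± 0.08, adjusted p = 0.0427 in limma), and Dync2h1, Dync2i1 and Dync2li1 passed in none.

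Dctn6 encodes the p27 subunit at the pointed end of dynactin, and it had the smallest adjusted p of all members. Saline arrays at 24 h read 1270 to 1440 with a median of 1380. Colchicine 2 mg/kg arrays read 449 to 780 in 5 animals and 1380 in replicate 1, so that the groups overlapped by that array alone (log2 -0.96 ± 0.12, 1.95-fold lower, limma adjusted p = 9.57e-10). Without the 10 arrays the change was -1.16. Vincristine 1 mg/kg arrays at 842 to 1050 (median 961) were below all of saline (-0.5 ± 0.12, adjusted p = 0.000731 in limma). A second Dctn6 probe set did not pass the filter and was not tested. Over 20 alternative fits, single-array omissions among them, the colchicine change ran from -1.16 to -0.48 and passed in each. The vincristine change ran from -0.53 to -0.23 and also passed in each. Vinblastine 3 mg/kg arrays at 979 to 1330 (median 1090) gave -0.28 ± 0.12 (adjusted p = 0.135 in limma), and 0.0199 without the 10 arrays. None of the 10 is in the groups compared, so only the shared spread and the adjustment had changed. The 5 vincristine 0.1 mg/kg arrays at 24 h read 1260, 1220, 1200, 1240 and 1250, and this change did not pass (-0.14 ± 0.13, adjusted p = 0.999 in limma). The vinblastine 0.5 mg/kg arrays at 1200 to 1440 and the colchicine 0.2 mg/kg arrays at 1220 to 1420 overlapped saline.

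The other dynactin subunits tested, Dctn1, Dctn2, Dctn4 and Dctn5, passed in none of the 12 comparisons. The change of Dctn6 minus their mean change at 24 h was -0.47 after vincristine, -0.96 after colchicine and -0.24 after vinblastine, with an SD between animals of 0.06 under saline and of 0.13, 0.51 and 0.14. This too was chosen after the values were seen, so no test result is given for it. Over the 14 group means the 5 genes most like Dctn6, of all genes tested, were Pm20d2, Ptpn3, Oxnad1, Txlnb and Dnajc19, with Pearson correlations of 0.984, 0.984, 0.983, 0.981 and 0.981. The means share their arrays and their saline groups, so the correlations only describe these 14 points.

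Between the times, the members that passed with all 82 arrays had the lower change at 24 h. The difference between the 24 h and the 6 h change passed for 12 members after colchicine 2 mg/kg, 22.6% of them beside 18.9% of all genes tested (6.3% higher and 12.6% lower). For vincristine 1 mg/kg it passed for 8 members, 15.1% beside 12.3% (3.53% higher and 8.73% lower), and for vinblastine 3 mg/kg for 1 member, Mapre1, 1.89% beside 4.44% (1.78% higher and 2.66% lower). Dctn6 showed the largest difference, log2 -0.95 ± 0.17 after colchicine (limma adjusted p = 4.75e-05) and -0.64 ± 0.17 after vincristine (adjusted p = 0.00677 in limma). Both held without the 10 arrays (-1.13 and -0.62). Map1b and Clip1, which had risen at 6 h, gave no such call with all arrays. Without the 10 arrays 2 members were higher and 13 lower at 24 h for colchicine, 28.3% beside 28.2% of all genes. For vincristine 1 was higher and 8 lower, 17% beside 15.8%, and for vinblastine 0 and 1, 1.89% beside 8.15%. Of these, 12, 8 and 0 were also called with all arrays. The 3 higher ones were Map1b (log2 0.69 ± 0.14, limma adjusted p = 0.000119) and Dynlt1 (0.3 ± 0.11, 0.0335) after colchicine and Dync2h1 (0.27 ± 0.09, 0.0335) after vincristine. Dync2h1 was dim, with a mean of 36.6, and was above the 40th percentile on 9 of the 82 arrays and 0 saline arrays. It was tested through treated arrays alone, so its call is not read as a result. The lower one for vinblastine was Clip1 (-0.42 ± 0.14, limma adjusted p = 0.0409) in place of Mapre1.

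**Figure D4:**
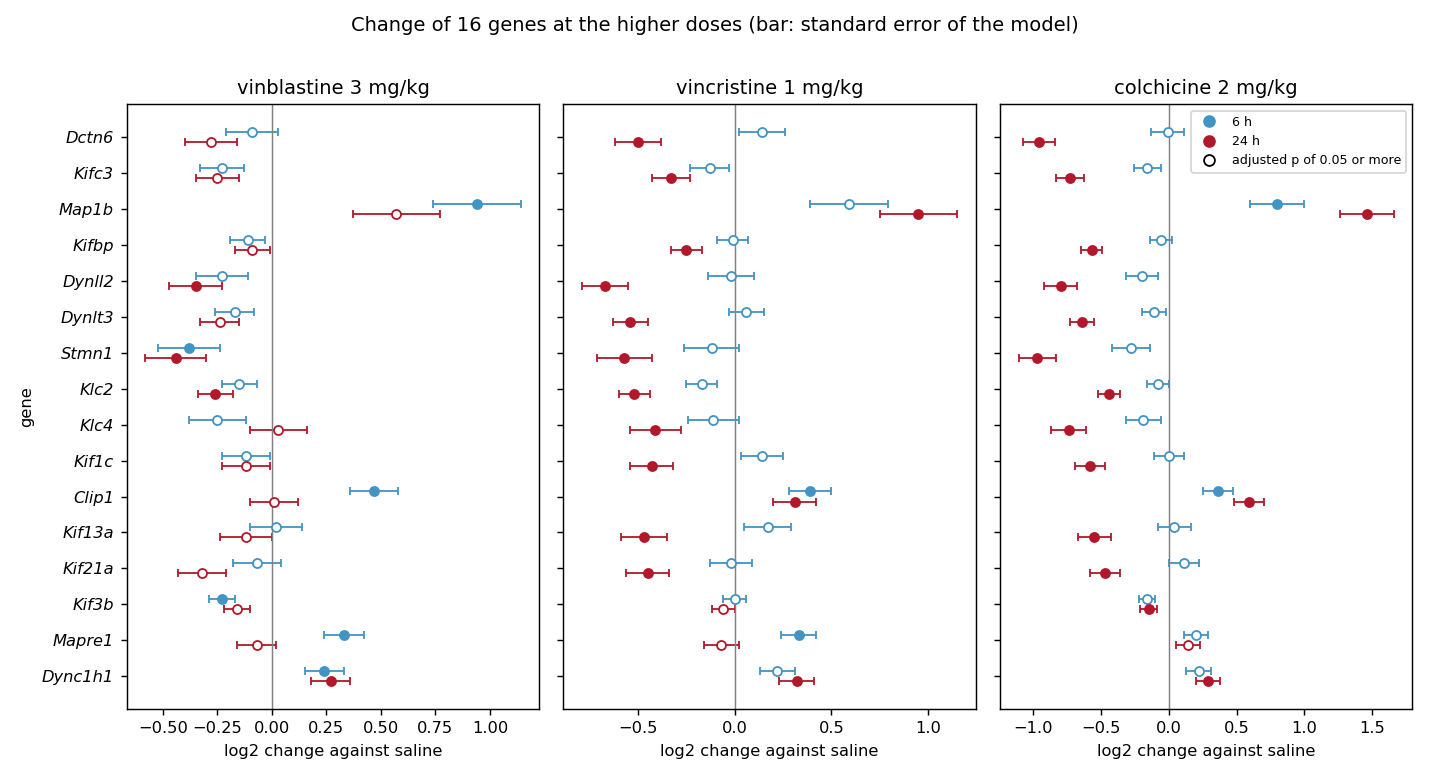
Log2 change against saline (horizontal axis, one scale per panel) of 16 members at 6 h (blue) and 24 h (red) for the higher dose of each compound, with bars of 1 standard error of the model. Filled points have an adjusted p under 0.05. Dctn6 after colchicine goes from -0.01 at 6 h to -0.96 at 24 h, and Map1b is to the right of 0 at both times for all 3 compounds.

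The higher dose of each compound was also set against its lower dose. At 24 h, 3 members were higher and 10 lower for vincristine 1 against 0.1 mg/kg, 24.5% beside 23.9% of all genes (12.3% up and 11.6% down). After colchicine 2 against 0.2 mg/kg, 5 rose and 14 fell, 35.8% beside 41.5% (18.8% up and 22.7% down), and with quantile normalization 8 and 14. After vinblastine 3 against 0.5 mg/kg, 1 rose and 0 fell, 1.89% beside 5.49% (3.92% up and 1.56% down), and with quantile normalization 2 and 1. The rise was Dync1h1 (log2 0.36 ± 0.09, limma adjusted p = 0.00653). At 6 h, 1 rose and 0 fell for vinblastine beside 8.53% of all genes (5.81% up and 2.71% down). For colchicine 1 rose and 1 fell beside 9.25% (4.47% up and 4.78% down). After quantile normalization these were 1 and 1 for vinblastine and 3 and 1 for colchicine. For vincristine 0 of 53 passed in limma beside 2.81% of all genes (1.61% up and 1.2% down), with 7 under an unadjusted p of 0.05. Map1b was the rise for both vinblastine (0.79 ± 0.2) and colchicine (0.89 ± 0.2), and Kifbp the fall for colchicine (-0.26 ± 0.08). Clip2, Dctn5 and Mapre3 passed only between the colchicine doses at 24 h, by 0.26, -0.23 and -0.33. Without the 10 arrays, 2 rose and 2 fell between the vinblastine doses at 24 h, 7.55% beside 11.1% of all genes. For vincristine 3 rose and 11 fell, 26.4% beside 27.3%, and for colchicine 9 rose and 14 fell, 43.4% beside 49%. At 6 h, also without the 10, the rises and falls were 1 and 0 for vinblastine, 1.89% beside 9.67%. They were 3 and 0 for vincristine, 5.66% beside 11.3%, and 3 and 2 for colchicine, 9.43% beside 15.2%.

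Genes that work with these motors but are not members moved in part. Their counts stand beside 44.6% of all genes after colchicine 2 mg/kg and 30.4% after vincristine 1 mg/kg at 24 h, and nothing particular to a list is read from them. Of 13 tested regulators and cargo adaptors of dynein, 2 rose and 5 fell after colchicine at 24 h and 0 rose and 5 fell after vincristine. Trak1 and Trak2, which link mitochondria to motors, fell after both: Trak2 by 1.32 ± 0.15 after colchicine and by 0.91 ± 0.15 after vincristine (limma adjusted p-values 8.77e-11 and 1.82e-06), and Trak1 by 0.77 ± 0.13 and 0.78 ± 0.13. Nde1, a partner of the dynein regulator LIS1, fell by 0.96 ± 0.15 and 0.74 ± 0.15. Its relative Ndel1 rose at 6 h after vinblastine (log2 0.57 ± 0.11) and colchicine (0.39 ± 0.11). Pafah1b1, which encodes LIS1, rose at 6 h after vinblastine (0.28 ± 0.07).

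Of 16 tested plus-end and minus-end proteins, 0 rose and 4 fell after colchicine at 24 h and 1 rose and 5 fell after vincristine. Clasp1 and Clasp2, which rescue shrinking microtubules, fell by 0.7 ± 0.12 and 0.76 ± 0.09 after colchicine (limma adjusted p-values 7.68e-07 and 7.82e-10). Of 14 tested enzymes that modify or sever tubulin, 1 rose and 3 fell after each of the 2 compounds. The deacetylase Hdac6 was the rise, by log2 0.79 ± 0.15 and 0.48 ± 0.15. The acetyltransferase Atat1 fell by 0.37 ± 0.08 and 0.36 ± 0.08. Of 16 other MAPs and their kinases, 0 rose and 6 fell after colchicine and 0 rose and 5 fell after vincristine, with Map7d1 falling by 0.85 ± 0.12 and 0.79 ± 0.12. Of 16 intraflagellar transport genes 1 rose and 3 fell after colchicine and 0 rose and 2 fell after vincristine, with Ift43 falling by 0.81 ± 0.15 and 0.38 ± 0.15 and Ift27 by 0.41 ± 0.08 and 0.4 ± 0.08. The list medians after colchicine at 24 h were -0.05, 0, 0.02, -0.13 and 0 in that order, beside 0 over all genes.

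Markers of several cell types moved in the same hearts, and their part in these results was not tested. After colchicine at 24 h, 5 of 6 fibroblast markers fell and 1 rose, and their summed intensity was 18700 to 27500 against 28300 to 35400 under saline. After vincristine 3 of the 6 fell, with sums of 21700 to 28200. Of 6 listed neutrophil markers 5 were on the array and 3 were tested. The filter counts treated arrays too, so a dim marker that rose was more likely to be tested. That all 3 tested markers rose is therefore not read as a result. Those 3 rose after both compounds at 24 h, with sums of 151 to 700 and 283 to 663 against 86.7 to 117. At 6 h they rose after vinblastine, with sums of 858 to 1600 against 81 to 145, and after colchicine, with 84.3 to 1150. Of 5 macrophage markers 3 rose and 1 fell after colchicine and 4 rose after vincristine, with sums of 742 to 1230 and 919 to 1250 against 660 to 757. Of the same 5, 3 rose after vinblastine at 24 h, with sums of 942 to 1420. Of 6 endothelial markers 3 rose and 1 fell after colchicine, 2 rose and 2 fell after vincristine and 2 rose and 1 fell after vinblastine at 24 h. Their sums of 5160 to 6630, 5230 to 6020 and 4580 to 6510 overlapped saline at 4910 to 6380. Of 5 smooth muscle and pericyte markers 1 rose and 1 fell after colchicine, 0 rose and 1 fell after vincristine and 0 passed after vinblastine in limma, with sums of 2210 to 3320, 2150 to 3020 and 2380 to 4140 against 2460 to 3400. The fall was Rgs5 for both colchicine (log2 -1.14 ± 0.21) and vincristine (-0.75 ± 0.21). Of 3 Schwann cell markers 0 passed in limma for any of the 3 compounds at 24 h. Of 8 myocyte markers Myh7 rose (log2 2.05 ± 0.31) and Myh6 and Ryr2 fell after colchicine, and the sums of 135000 to 166000 overlapped saline at 131000 to 155000. Of 4 tested neuron markers 2 rose and 2 fell after colchicine and 0 passed after vincristine, and their sums of 386 to 679 and 493 to 701 overlapped saline at 557 to 703. Of 5 dividing-cell markers 1 fell after colchicine and 2 after vincristine, with sums of 207 to 317 and 210 to 264 against 234 to 390. Of the same 5, 2 fell after vinblastine at 24 h, with sums of 189 to 247. Both red blood cell markers fell after vinblastine and vincristine at 24 h, with sums of 7690 to 11200 and 6300 to 10500 against 11800 to 13900, and 0 of 2 passed after colchicine in limma.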

How the data were processed

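The deposited values are intensity values per probe set on a linear scale. Their summarisation and normalization are not given in the sources used here. Array medians were close, and no further normalization was applied. Of 31099 probe sets 57 were controls and were left out, and of the others 20826 carried 1 gene symbol, 436 several and 9780 none. Members had 109 probe sets, with more than 1 for 25 members, and 6 probe sets shared with other symbols were not used. With log2(intensity + 16) as response, limma 3.58.1 (R 4.3.3) estimated a mean for each of the 14 groups, with 68 residual and 4.67 prior degrees of freedom. There were 22 comparisons: 12 with saline, 6 between doses, 3 between times and 1 between saline groups.

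The members, lists and alternatives were chosen with earlier results of these data known. Described in full were up to 16 members that passed against saline, ranked by smallest adjusted p and with the best of each role. Non-members were named from lists, at most 3 per list and comparison. The code was tested on simulated data. Each array is 1 animal per the labels, and their number limits the precision.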

Additional observations from a re-analysis of the deposited data

Results flagged for a closer look

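Of 224 combinations of the 16 described members and 14 groups, 23 held an array whose gap to the next covered more of the group range than Dixon's 95% critical value, where chance gives about 1 in 20. Of these, 16 lay on the 10 arrays nearer another group. Colchicine 2 mg/kg replicate 1 at 24 h stood apart for Dctn6 (1380), Kifc3 (251), Map1b (635), Dynlt3 (844) and Klc4 (531). Colchicine 2 mg/kg replicate 4 at 6 h stood apart for Dynll2 (2980), Klc4 (521) and Kif13a (1020). Vinblastine 3 mg/kg replicate 1 at 6 h stood apart for Klc2 (662), Klc4 (197), Kif13a (1030) and Mapre1 (1080).

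Lower doses held 4 more of the 16: Map1b read 1260 in vinblastine 0.5 mg/kg replicate 6 at 6 h, 1320 in replicate 5 of that dose at 24 h and 1030 in colchicine 0.2 mg/kg replicate 6 at 24 h, and Dync1h1 read 1150 in vincristine 0.1 mg/kg replicate 5 at 24 h. The other 7 were Kifc3 at 266 in vinblastine 3 mg/kg replicate 4 at 24 h, Kifbp at 992 in saline replicate 2 at 24 h and at 952 in colchicine 0.2 mg/kg replicate 4 at 6 h, Kif3b at 230 in that same array, Klc2 at 697 in vincristine 1 mg/kg replicate 4 at 6 h, Kif1c at 2660 in colchicine 0.2 mg/kg replicate 5 at 24 h and Clip1 at 224 in saline replicate 4 at 24 h.

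The difference between the 24 h and 6 h changes, an interaction in the limma model, passed for 21 member and compound pairs, each lower at 24 h with all arrays used. After colchicine 2 mg/kg the log2 values were -0.95 for Dctn6, -0.69 for Stmn1, -0.6 for Dynll2, -0.59 for Kif13a, -0.58 for Kif21a, -0.57 for Kif1c and Kifc3, -0.55 for Klc4, -0.53 for Dynlt3, -0.51 for Kifbp and -0.36 for Klc2 and Stmn4. After vincristine 1 mg/kg they were -0.64 for Dctn6, Dynll2 and Kif13a, -0.6 for Dynlt3, -0.57 for Kif1c, -0.4 for Mapre1 and -0.35 for Klc2 and Stmn4. After vinblastine 3 mg/kg the value was -0.4 for Mapre1, a call lost in 17 of 24 omissions of a single array and without the 10 arrays. The other 20 held without the 10 arrays. Leaving out single arrays lost 3 more pairs besides the 2 of Mapre1: Klc2 after vincristine without vincristine replicate 3 at 6 h (limma adjusted p = 0.0549), Klc2 after colchicine without colchicine replicate 6 at 24 h (0.0504) and Klc4 after colchicine without saline replicate 6 at 6 h (0.054) or colchicine replicates 3 (0.07), 5 (0.0529) or 6 (0.0559) at 24 h. Without the 10 arrays Map1b and Dynlt1 after colchicine and Dync2h1 after vincristine passed with a higher change at 24 h. Dync2h1 was dim and was tested through treated arrays alone.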

How the results depend on the processing

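Of 22 counts of members past the threshold and 43 calls of described members, adding 1 before log2 moved 0 counts and lost 0 calls. Omitting the filter moved 0 and lost 2, quantile normalization 3 and 2, the mean of probe sets 4 and 5, fitting only the compared groups 6 and 9, omitting the 6 arrays whose label ends in _2 4 and 4, and omitting the 10 arrays nearer another group 7 and 3. No call of these 43 changed sign under these 8 alternatives. The replicate block moved 1 count, vinblastine 3 against 0.5 mg/kg at 24 h from 1 to 2, and lost 0 calls. Of the 21 differences between times that passed, 0, 1, 3, 2, 4, 1 and 1 were lost in that order, and 0 with the block. The numbers do not pair the animals: same-numbered arrays correlated between -0.38 and 0.45, and 0 of 19 comparisons had every pair over 0.1. The 9 calls lost with only the compared groups were Stmn1, Kif3b, Mapre1 and Dync1h1 (vinblastine, 6 h), Clip1 and Mapre1 (vincristine, 6 h), Stmn1 and Dync1h1 (vinblastine, 24 h) and Kif3b (colchicine, 24 h), with adjusted p-values of 0.0534 to 0.142.

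For 3 mg/kg vinblastine at 6 h the count of 8 became 2 with only the compared groups and 4 without the _2 arrays or the 10 arrays. For 1 mg/kg vincristine at 6 h the count of 2 became 1 (mean of probe sets), 0 (compared groups) and 5 (without the 10). For 2 mg/kg colchicine at 6 h it became 1 (mean of probe sets) and 5 (without the 10), and for 3 mg/kg vinblastine at 24 h the count of 4 became 9 without the 10. The share of all genes past the threshold in that vinblastine comparison went from 9.58% to 15.8%. Between doses, vinblastine at 6 h went from 1 to 2 (quantile) and 0 (compared groups, without _2), at 24 h from 1 to 3 (quantile), 0 (compared groups), 2 (without _2) and 4 (without the 10), vincristine at 6 h from 0 to 1 (mean of probe sets, compared groups) and 3 (without the 10), and colchicine at 6 h from 2 to 4 (quantile) and 5 (without the 10). The change between times for vinblastine went from 1 to 0 with the mean of probe sets, with the compared groups and without _2. The cause was not tested.

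Leaving out single arrays gave 3 to 8, 0 to 3 and 1 to 4 members for vinblastine, vincristine and colchicine at the higher dose at 6 h and 0 to 5, 13 to 19 and 15 to 19 at 24 h, and 0 at each lower dose and between saline groups. Between doses the ranges were 0 to 4, 0 to 2 and 1 to 5 at 6 h and 1 to 2, 8 to 13 and 15 to 23 at 24 h, and between times 0 to 2, 7 to 10 and 10 to 14. The 0 for vinblastine at 24 h came without saline replicate 5, the 3 at 6 h without vinblastine replicate 1.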
